A study of Homo sapiens with 9 samples.

Results

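The genes described here make up the protein folding and disposal machinery of the endoplasmic reticulum (ER), taken as the 39 symbols of a fixed list that appear in the first column of the deposited counts, out of 16222 genes. They comprise 24 folding genes (12 chaperones and cofactors, 3 genes of the lectin chaperone cycle and 9 disulfide isomerases and oxidases), 11 genes of ER-associated degradation, the 3 sensor genes ERN1, ATF6 and XBP1, and the translocon subunit SEC61B. RNA was sequenced from wild-type THP-1 cells, an established human monocytic leukaemia line that becomes adherent and macrophage-like with the phorbol ester PMA. All 9 samples received PMA, and were then given PBS (control), LPS, the bacterial endotoxin, or LPS together with ABS (LPS_ABS), with 3 libraries in each group. The labels do not spell out ABS, although the series title concerns apoptotic bodies, and they give no dose or time. Nothing in the labels says that the replicates were separate cultures, so the p-values measure only the spread between these libraries, which may be technical.

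Proteins that enter the ER are folded by chaperones, among them BiP (HSPA5), GRP94 (HSP90B1) and the lectins calnexin and calreticulin, while disulfide isomerases form and rearrange their disulfide bonds. Proteins that do not fold are drawn back into the cytosol through a membrane complex built around SEL1L and the ligase SYVN1, and are destroyed by the proteasome. When unfolded proteins accumulate, the sensors IRE1 (encoded by ERN1) and ATF6 are activated. IRE1 splices the mRNA of the transcription factor XBP1, and ATF6 and XBP1 then raise chaperone and degradation genes, a programme called the unfolded protein response. PERK, another sensor, acts through the transcription factor ATF4.

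Promoters of many of these genes carry ER stress response elements, and the sequences below are shown because members holding the same element moved in opposite directions with LPS. RefSeq promoter windows (GRCh38.p14, 250 bases before to 50 after the start) were found for 36 of the 39 members and searched on both strands. ERSE was searched as CCAAT followed after 9 bases of any kind by CCACG, ERSE-II as ATTGG followed after 1 base of any kind by CCACG, and the core of the UPR element as TGACGTGG. ERSE stood in 7 of 36 members (19.44%) and in 22 of all 27305 promoters (0.08%). ERSE-II stood in 3 members (8.33%) and in 15 of all promoters (0.05%), and the UPR element core in 2 members (5.56%) and 217 promoters (0.79%). A match describes letters in the window and does not show that a factor binds there. Stretches upstream of the start are printed 5′ to 3′ on the strand of the gene, with the fixed bases of ERSE or ERSE-II in capitals. They are HSPA5 (chr9:125241376-125241424, minus strand), HSP90B1 (chr12:103930201-103930354, plus), CRELD2 (chr22:49918539-49918587, plus), CALR (chr19:12938369-12938417, plus), CANX (chr5:179698763-179698811, plus) and XBP1 (chr22:28800588-28800636, minus) with ERSE, and SDF2L1 (chr22:21642099-21642139, plus) and HERPUD1 (chr16:56932010-56932050, plus) with ERSE-II.
HSPA5: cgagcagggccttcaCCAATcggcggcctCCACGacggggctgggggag
HSP90B1: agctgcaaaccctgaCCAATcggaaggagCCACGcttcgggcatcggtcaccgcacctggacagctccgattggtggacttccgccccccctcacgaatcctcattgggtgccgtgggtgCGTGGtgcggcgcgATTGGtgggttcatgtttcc
CRELD2: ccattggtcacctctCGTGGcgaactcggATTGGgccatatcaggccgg
CALR: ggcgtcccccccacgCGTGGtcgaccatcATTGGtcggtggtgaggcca
CANX: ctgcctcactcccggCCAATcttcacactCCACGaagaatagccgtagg
XBP1: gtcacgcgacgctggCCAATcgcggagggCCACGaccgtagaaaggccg
SDF2L1: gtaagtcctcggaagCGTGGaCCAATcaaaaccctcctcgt
HERPUD1: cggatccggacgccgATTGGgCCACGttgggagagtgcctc
HSP90B1 held 2 ERSE, on opposite strands. ERO1B held 1 ERSE, TXNDC11 the UPR element core, and HYOU1 2 copies of ERSE-II, 1 of which overlaps its UPR element core. Of the 7 members with ERSE, HSP90B1, CRELD2 and CALR were lower with LPS, XBP1 was higher, and HSPA5, CANX and ERO1B were not called. Of the 3 members with ERSE-II, SDF2L1 was lower, HERPUD1 higher and HYOU1 not called.

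Total counts per library lay between 38506162 and 41679412. All 10 monocyte and macrophage markers, CD14 and CD68 among them, reached 1 CPM (counts scaled to a common library size) in each library, and summed to between 1318 and 1418 CPM in controls. The sum was 1479 to 1614 CPM in LPS libraries and 1674 to 2007 CPM in LPS_ABS libraries. Defining markers of T cells (CD3D, CD3E and CD3G), B and plasma cells (MS4A1, MZB1 and JCHAIN), fibroblasts (COL3A1), chondrocytes (ACAN and COMP) and endothelium (CDH5) were absent or at 0. The group names are those of the labels. IFIT1, an interferon-induced gene, was at 53.1 to 94.2 CPM with LPS, 17.6 to 28.1 CPM in controls and 12.9 to 32.9 CPM with LPS_ABS. The cytokine gene TNF was not called with LPS (log2 fold change 0.57 ± 0.41 SE, edgeR adjusted p = 0.393). IL1B, an inflammatory cytokine that LPS usually raises in macrophages, was at 12 to 13.8 CPM with LPS, 37.5 to 50.8 CPM in controls and 50.7 to 85.4 CPM with LPS_ABS. What accounts for these levels was not tested. The LPS_ABS libraries also stood apart in a trend of their counts with transcript GC content, with slopes of 0.194 to 0.301 log2 units per 10 GC points against -0.144 to -0.116 in controls and -0.255 to -0.0225 with LPS. Values after a correction for that trend, whose origin was not tested, are therefore given beside both comparisons that use LPS_ABS.

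On the per-length scale of the deposited FPKM values, the control cells carried these mRNAs at widely different levels. CALR (1155 ± 49.3 FPKM, SD, n = 3) and P4HB (906 ± 46.1), which encode calreticulin and the main protein disulfide isomerase, stood far above the rest. HSP90B1 (192 ± 8.11) and CANX, calnexin (180.2 ± 10.6), came next and did not differ beyond their spread. PDIA6 (148 ± 4.81), HSPA5 (139 ± 9.66), PDIA3 (134 ± 10.9) and SEC61B (130.1 ± 0.763) formed a run in which neighbouring genes overlapped. XBP1 (83.9 ± 2.93) was the most abundant of the sensor genes and ATF6 (11.4 ± 0.404) was lower. ERN1 (0.946 ± 0.154) was the lowest of the 38 members with reads in the controls, although it did not differ beyond its spread from ERO1B (1.083 ± 0.110). FKBP2, an ER prolyl isomerase, had 1 read in LPS_ABS 1 and 0 in the other 8 libraries, where 3 counts, the limit a count of 0 allows, correspond to 0.0720 to 0.0779 CPM. It was not tested, which leaves 38 members.

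Part of the folding machinery was lower with LPS, and part of the degradation machinery and all 3 sensor genes were higher. Of 38 members tested, 7 were higher and 9 lower with LPS than in controls (edgeR quasi-likelihood test, adjusted p under 0.05 over 12970 genes), where 7.71% of all genes were called higher and 7.19% lower. By class, 0 of 23 folding genes rose and 9 fell, with a median log2 fold change of -0.36, and 4 of 11 degradation genes rose and 0 fell, with a median of 0.19. The median over all genes tested was -0.03. At an unadjusted p under 0.05 edgeR likewise had 0 folding genes higher (12 lower) and 0 degradation genes lower (4 higher), and DESeq2 and limma-voom also called 0 folding genes higher and 0 degradation genes lower. These zeros did not hold in each fit. With only the 2 groups compared, the folding gene DNAJB9 was called higher (0.47, edgeR adjusted p = 0.0373; 14 folding genes lower) and the degradation gene EDEM3 lower (-0.34, edgeR adjusted p = 0.0444; 4 higher). After the correction for GC content described above, 2 folding genes were higher at an unadjusted p. With that correction, 1 folding gene was called higher without LPS_ABS 1 or without LPS_ABS 3, and 1 degradation gene lower without LPS_ABS 1. The 3 sensor genes rose, with a median of 1.33, and SEC61B, a subunit of the channel through which proteins enter the ER, was not called (-0.07 ± 0.12 SE). Control and LPS libraries did not overlap in 26 of 38 members, against 42.6% of all genes. The control libraries of this comparison also serve in the comparison of LPS_ABS with control, and the LPS libraries in that of LPS_ABS with LPS.

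**Figure D1:**
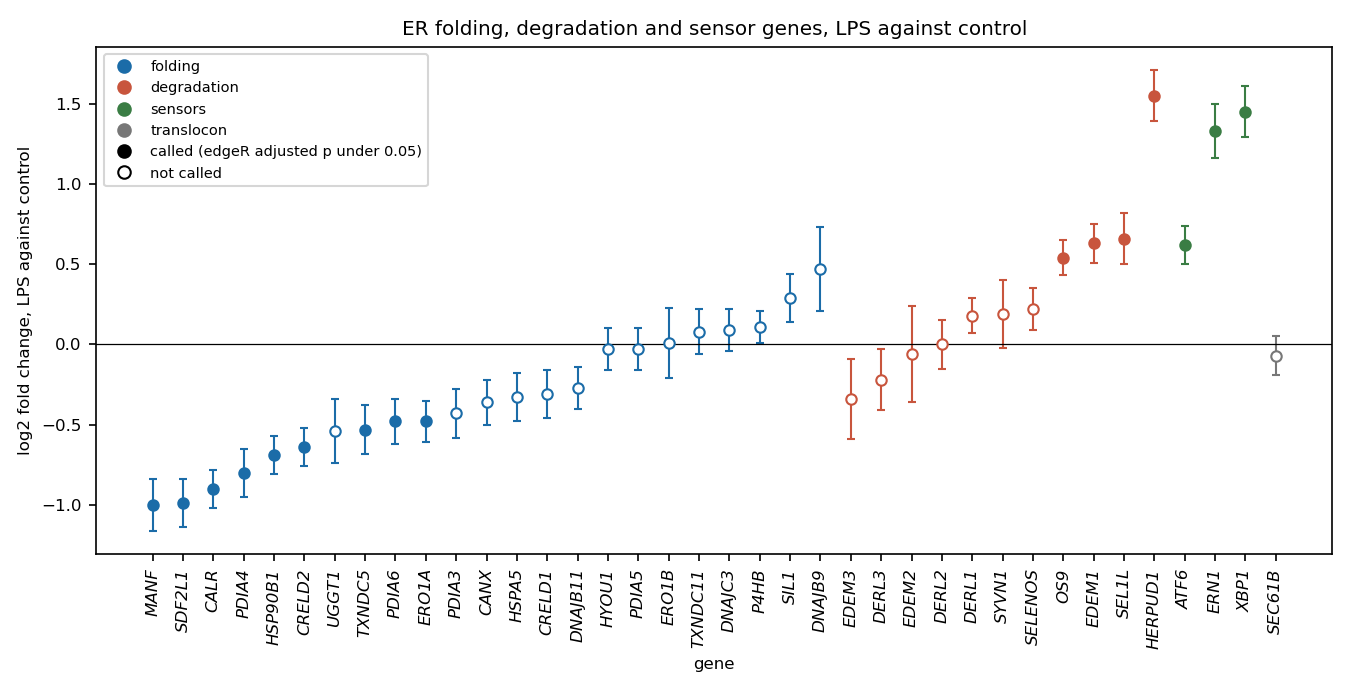
Log2 fold change with LPS against control (y axis) of the 38 members tested (x axis), by class; whiskers are ± 1 SE from edgeR over 3 libraries per group, and filled points were called. The 9 filled folding genes lie between -1.0 and -0.48, and the 7 filled degradation and sensor genes between 0.54 and 1.55.

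Among the chaperones of the BiP and GRP94 system, 4 of 11 tested were called, all lower. HSP90B1 (gene ID 7184), the ER member of the HSP90 family, was at 534, 490.2 and 519 CPM in control 1, 2 and 3, at 345, 301 and 314 CPM with LPS, and at 307, 229 and 275 CPM with LPS_ABS. Each LPS library was thus below each control, and the log2 fold change was -0.69 ± 0.12 (SE; edgeR adjusted p = 0.00377). SDF2L1 (gene ID 23753), a partner of the BiP cochaperones in the ER, was at 49.9, 49.4 and 49.5 CPM in controls, 23.0, 25.3 and 26.7 CPM with LPS, and 49.1, 34.1 and 48.5 CPM with LPS_ABS. It fell 1.98-fold with LPS (-0.99 ± 0.15, edgeR adjusted p = 0.0014) with no overlap between control and LPS. MANF (gene ID 7873), a stress-induced ER protein that binds BiP and is also secreted, was at 92.6, 88.2 and 92.1 CPM in controls, 48.3, 43.7 and 44.6 CPM with LPS, and 54.4, 55.5 and 83.8 CPM with LPS_ABS. Its fall of 2.0-fold (-1.0 ± 0.16, edgeR adjusted p = 0.00191) was the largest among the members by log2 fold change, and LPS_ABS 3 was the only treated library near the control level. CRELD2 (gene ID 79174), an ER stress-inducible protein with EGF-like domains, was at 72.6, 79.3 and 72.8 CPM in controls, 46.0, 47.9 and 50.1 CPM with LPS, and 88.4, 75.2 and 82.3 CPM with LPS_ABS. The LPS libraries lay below those of both other groups (LPS against control -0.64 ± 0.12, edgeR adjusted p = 0.00399).

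BiP itself did not pass the test. HSPA5 (gene ID 3309), shown for its central role and chosen with its values known, was at 501, 502 and 577 CPM in controls, 422, 421 and 416 CPM with LPS, and 372, 469.8 and 602 CPM with LPS_ABS. Control and LPS libraries did not overlap, but the log2 fold change of -0.33 ± 0.15 had an edgeR adjusted p of 0.17, and the LPS_ABS libraries spanned the range of both other groups. The other 6 members of this class that were not called with LPS were HYOU1, a nucleotide exchange factor and holdase of BiP (log2 fold change -0.03), SIL1, another exchange factor (0.29), the J-domain cochaperones DNAJB9 (0.47), DNAJB11 (-0.27) and DNAJC3 (0.09), and CRELD1 (-0.31).

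In the lectin chaperone cycle, which holds glycoproteins while their sugar is trimmed, CALR (gene ID 811) fell. Its levels were 2020, 2095 and 2246 CPM in controls, 1149, 1112 and 1158 CPM with LPS, and 2033, 1750.0 and 2393 CPM with LPS_ABS. The 3 LPS libraries lay close together, below each library of the other groups (LPS against control -0.90 ± 0.12, edgeR adjusted p = 5.2e-04). CANX, the membrane-bound counterpart of calreticulin, and UGGT1, which returns misfolded glycoproteins to the cycle, had log2 fold changes of -0.36 and -0.54 and were not called (edgeR adjusted p = 0.112 and 0.0923).

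Of the 9 disulfide isomerases and oxidases, 4 fell and 0 rose with LPS. PDIA4 (gene ID 9601), an isomerase with several thioredoxin domains, was at 253, 261 and 301 CPM in controls, 162, 153 and 154 CPM with LPS, and 217, 239 and 324 CPM with LPS_ABS. The LPS group overlapped neither of the others (LPS against control -0.80 ± 0.15, edgeR adjusted p = 0.00419). PDIA6 (gene ID 10130), another isomerase, was at 442, 437 and 475 CPM in controls, 338, 312 and 319 CPM with LPS, and 319, 382 and 479 CPM with LPS_ABS. Its change was -0.48 ± 0.14 (edgeR adjusted p = 0.0353), with each LPS library below each control and 1 LPS_ABS library within the range of the LPS group. TXNDC5 (gene ID 81567), a thioredoxin-domain isomerase, was at 88.8, 87.8 and 88.3 CPM in controls, 58.8, 64.0 and 61.0 CPM with LPS, and 58.9, 70.2 and 91.2 CPM with LPS_ABS. The controls lay close together and above each LPS library (-0.53 ± 0.15, edgeR adjusted p = 0.0341). ERO1A (gene ID 30001), the oxidase that recharges the isomerases, was at 36.5, 32.4 and 36.0 CPM in controls, 25.0, 23.8 and 26.3 CPM with LPS, and 23.5, 21.2 and 25.2 CPM with LPS_ABS. Both treated groups lay below the controls on this scale (LPS against control -0.48 ± 0.13, edgeR adjusted p = 0.0265). PDIA3 (gene ID 2923), the isomerase that works with the lectin chaperones, was at 439, 461 and 525 CPM in controls, 372, 337 and 346 CPM with LPS, and 395, 496 and 605 CPM with LPS_ABS. The LPS libraries were the 3 lowest, but the log2 fold change with LPS of -0.43 ± 0.15 was not called (edgeR adjusted p = 0.0641). P4HB (0.11), PDIA5 (-0.03), TXNDC11 (0.08) and ERO1B (0.01) were not called either.

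**Figure D2:**
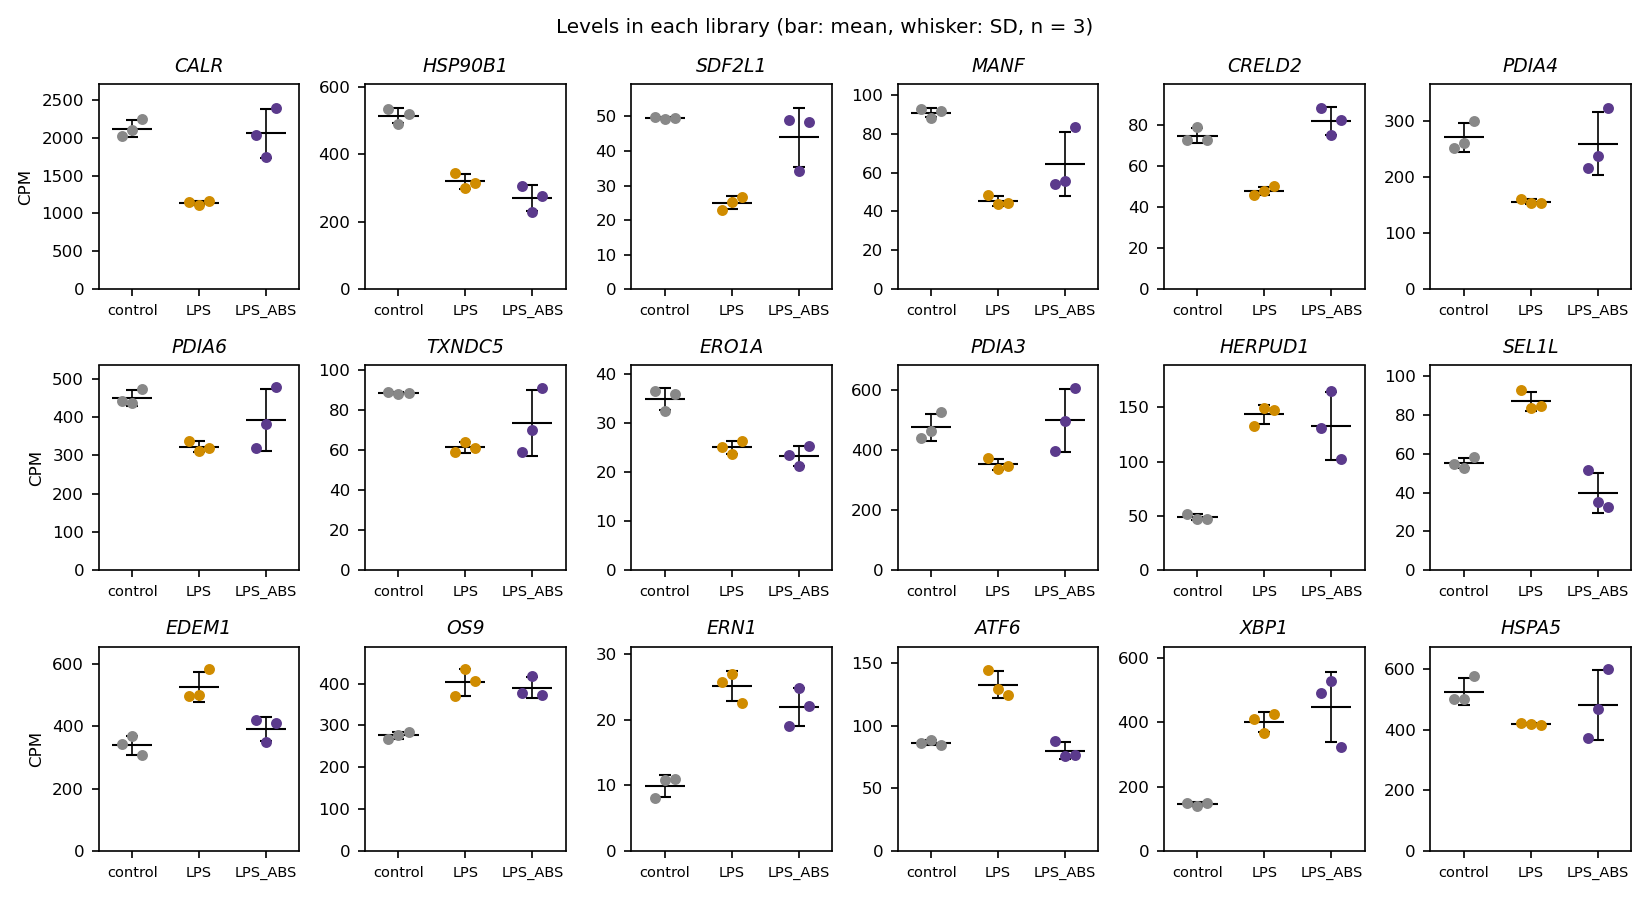
CPM (y axis, from 0) in each library of the 17 members described by library and of HSPA5; points are libraries 1 to 3 from left to right within a group, the bar is the mean and the whisker 1 SD (n = 3). CALR, SDF2L1, CRELD2 and PDIA4 are lowest with LPS, whereas HERPUD1, ERN1 and XBP1 are low only in controls.

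Among degradation genes, HERPUD1 showed the widest difference. HERPUD1 (gene ID 9709), a membrane scaffold of the SYVN1 complex, was at 51.9, 47.3 and 47.4 CPM in controls, 133, 149 and 148 CPM with LPS, and 131, 165 and 102.5 CPM with LPS_ABS. It rose 2.93-fold with LPS (1.55 ± 0.16, edgeR adjusted p = 1.4e-04), and the controls lay below all 6 treated libraries. SEL1L (gene ID 6400), the adaptor that holds substrates at the ligase, was at 54.8, 52.8 and 58.2 CPM in controls, 92.9, 83.4 and 84.8 CPM with LPS, and 51.5, 35.2 and 32.6 CPM with LPS_ABS. The LPS libraries were above both other groups (LPS against control 0.66 ± 0.16, edgeR adjusted p = 0.0191). EDEM1 (gene ID 9695), which trims mannose from glycoproteins bound for degradation, was at 344, 368 and 308 CPM in controls, 496, 501 and 583 CPM with LPS, and 419, 349 and 409.8 CPM with LPS_ABS. All 3 LPS libraries exceeded the other 6 (0.63 ± 0.12, edgeR adjusted p = 0.00503). OS9 (gene ID 10956), a lectin that reads the trimmed sugar, was at 268, 277 and 285 CPM in controls, 369.6, 435 and 406 CPM with LPS, and 379, 419 and 374 CPM with LPS_ABS. Both treated groups were above the controls (LPS against control 0.54 ± 0.11, edgeR adjusted p = 0.00609).

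The other 7 degradation genes were not called with LPS. They were the ligase SYVN1 (0.19), the channel proteins DERL1 (0.18), DERL2 (-0.00) and DERL3 (-0.22), the mannosidase-like EDEM2 (-0.06) and EDEM3 (-0.34), and SELENOS, which recruits the extraction motor (0.22), all as log2 fold changes. EDEM2 and DERL3 had control means of 2.38 ± 0.771 and 5.17 ± 0.748 CPM (SD, n = 3).

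All 3 sensor genes rose with LPS. ERN1 (gene ID 2081) was at 8.03, 10.8 and 11 CPM in controls, 25.8, 26.9 and 22.5 CPM with LPS, and 19.0, 24.8 and 22.0 CPM with LPS_ABS. Controls lay below all 6 treated libraries, and the change with LPS was 1.33 ± 0.17 (edgeR adjusted p = 4.5e-04). ATF6 (gene ID 22926) was at 86.6, 88.6 and 84.5 CPM in controls, 145, 129 and 125 CPM with LPS, and 88.0, 76.3 and 76.4 CPM with LPS_ABS. The LPS libraries were the 3 highest (0.62 ± 0.12, edgeR adjusted p = 0.00454). XBP1 (gene ID 7494) was at 150.1, 140.1 and 151 CPM in controls, 412, 368 and 426 CPM with LPS, and 491, 529 and 323 CPM with LPS_ABS. The controls again lay below all treated libraries (LPS against control 1.45 ± 0.16, edgeR adjusted p = 2.2e-04). Gene counts do not separate spliced from unspliced XBP1 mRNA, and mRNA levels do not report sensor activity.

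These calls were not all equally firm. PDIA6, TXNDC5, ERO1A and SEL1L lost theirs when control 1, control 2, control 3 or LPS 3 was left out, PDIA6 and TXNDC5 also without LPS 1 or LPS 2, and ERO1A also without LPS 2, while the other 12 calls held in each of these fits. The GC correction kept all 16 calls (7 higher and 9 lower, where 11.4% and 9.71% of all genes were then called), and comparing only the LPS and control libraries gave 8 higher and 15 lower, where 12.2% and 13.3% of all 12754 genes in that fit were called.

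Genes of the same pathways outside the members were taken from lists chosen for function, with earlier results of these data known. Over all genes tested, 7.71% were called higher with LPS and 7.19% lower, and 11.4% and 9.71% after the GC correction. Of 32 other folding factors tested, 8 rose and 1 fell with LPS (edgeR adjusted p under 0.05), with a median log2 fold change of 0.15. Examples were TXNDC12, a thioredoxin-like ER protein (152 ± 5.77 CPM in controls and 239.9 ± 13.6 CPM with LPS, log2 fold change 0.66), GPX8, an ER peroxidase (3.46 ± 1.02 and 11.1 ± 0.147 CPM, 1.68), and PRDX4, a peroxiredoxin that feeds disulfide formation, which fell (90.7 ± 10.01 and 51.0 ± 4.38 CPM, -0.83). After the GC correction 11 of these folding factors were higher and 1 lower. Of 32 other degradation factors 4 rose and 1 fell, with a median of 0.09, and 8 were higher and 1 lower after the GC correction. The intramembrane protease RHBDD1 rose by 1.04 and the ligase RNF185 by 0.57, and the ubiquitin-conjugating enzyme UBE2G2 fell by 0.48 on the log2 scale. In the list of translocation, signal peptide cleavage and N-glycan transfer, 0 of 32 rose and 1 fell (SSR3, a translocon-associated subunit, -0.42), with a median of -0.16. After the GC correction SSR3 was not called, and 1 gene of this list, SPCS3, was lower. Among 20 genes of COPII transport and KDEL retrieval 0 rose and 1 fell, the coat subunit SEC13 (-0.51), with a median of -0.20, and 3 were lower after the GC correction. In both of these lists 0 genes were higher at an unadjusted edgeR p under 0.05, and DESeq2 and limma-voom called 0 higher. After the GC correction 1 gene in each list was higher at an unadjusted edgeR p under 0.05.

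The remaining lists hold stress pathway genes outside the members, to be set beside the same 7.71% of all genes called higher and 7.19% lower. Of 17 other sensors, processing proteases and regulators, 4 rose and 0 fell with LPS, with a median of 0.10 (edgeR adjusted p under 0.05), where 1 was lower at an unadjusted p, and DESeq2 and limma-voom each called 1 lower. Among them were ATF6B, the paralog of ATF6 (0.50 ± 0.13 SE), and TMBIM6, an ER membrane protein that restrains IRE1 (0.61 ± 0.13). In the PERK and ATF4 arm 13 of 14 rose and 0 fell (0 also at an unadjusted p, and by DESeq2 and limma-voom), with a median of 2.45. That list does not hold the gene of PERK itself, EIF2AK3. It was among the 17 other sensors and regulators and was not called with LPS, and which sensor acted on the arm was not tested. ATF4 itself was at 488 ± 5.05 CPM in controls, 1605 ± 56.8 CPM with LPS and 1349 ± 301 CPM with LPS_ABS (SD, n = 3 each; LPS against control 1.72 ± 0.15 SE, edgeR adjusted p = 7.2e-05), and its target CHAC1 rose by 3.70 ± 0.31.

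With ABS added to LPS, the measured direction of a member followed the GC content of its transcript. Before correction, LPS_ABS exceeded LPS in 9 of 38 members and was below it in 6 (edgeR adjusted p under 0.05), where 16.8% of all genes were called higher and 18.8% lower. The 9 higher were HYOU1, SDF2L1, MANF, CRELD2, CALR, PDIA3, PDIA4, P4HB and SYVN1, with a GC content of 43.8 to 65.5%. The 6 lower were DNAJB9, DNAJC3, ERO1B, SEL1L, EDEM1 and ATF6, with 37.0 to 45.2%. Over the 38 members, which share the same libraries, the rank correlation (Spearman's rho) between GC content and this change was 0.74 as counted and 0.01 after the correction. Over all genes tested it was 0.69 and 0.0. The correction takes out the trend with GC content, so values near 0 after it follow from how it is made. The same value over the members for LPS against control was -0.14.

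After the GC correction 5 members were higher and 1 lower, where 5.03% of all genes were called higher and 4.23% lower. All 5 were folding genes, with 0 of the 23 folding genes lower (2 at an unadjusted edgeR p under 0.05). CALR was at 2164, 2190 and 2334 GC-corrected CPM in controls, 1304, 1120 and 1194 with LPS, and 1812, 1559 and 2078 with LPS_ABS. The LPS_ABS libraries lay between the LPS libraries and the controls, and the log2 fold change against LPS was 0.59 ± 0.12 (SE; edgeR adjusted p = 0.0127; 0.85 before correction). PDIA3 was at 399.7, 415 and 475 GC-corrected CPM in controls, 333, 323 and 329 with LPS, and 451, 602 and 673 with LPS_ABS. All 3 LPS_ABS libraries exceeded all 3 LPS libraries (0.81 ± 0.14, edgeR adjusted p = 0.00738; 0.50 before). PDIA4 was at 269.6, 271 and 308 in controls, 179.7, 155 and 158 with LPS, and 199, 215 and 283 GC-corrected CPM with LPS_ABS (0.50 ± 0.14, edgeR adjusted p = 0.0397; 0.73 before). Its LPS_ABS libraries were above all LPS libraries, and 1 of them lay within the range of the controls.

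The single lower member was SEL1L. After the GC correction it was at 44.8, 45.1 and 50.8 CPM in controls, 74.4, 76.6 and 74.8 CPM with LPS, and 56.8, 50.1 and 49.5 CPM with LPS_ABS. The LPS libraries remained the 3 highest, and the log2 fold change of LPS_ABS against LPS was -0.53 ± 0.11 (SE; edgeR adjusted p = 0.0144; -1.13 before). PDIA6 (0.42 ± 0.11, edgeR adjusted p = 0.0387) and ERO1A (0.57 ± 0.15, edgeR adjusted p = 0.0373) were called after the correction alone, and ERO1A had stood at -0.10 before it. The 11 members whose calls were lost included ATF6 (-0.73 before and -0.22 after), DNAJB9 (-1.26 and -0.74), CRELD2 (0.77 and 0.33) and SDF2L1 (0.81 and 0.34). ERN1, XBP1 and HERPUD1, the members that rose most with LPS, were not called between LPS_ABS and LPS, at -0.34, 0.06 and -0.09 after the correction.

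**Figure D3:**
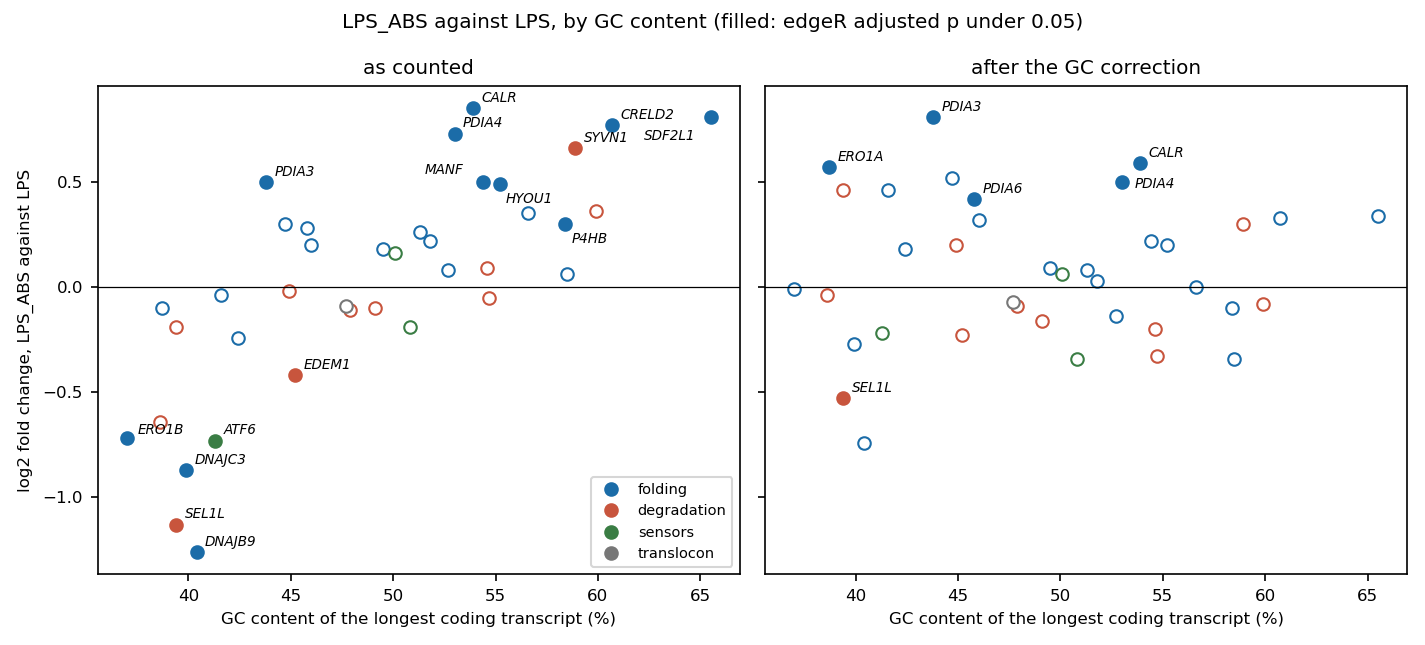
Log2 fold change of LPS_ABS against LPS (y axis) against the GC content of the longest coding transcript (x axis, %) for the 38 members, as counted (left) and after the GC correction (right); filled points were called by edgeR at an adjusted p under 0.05. On the left most low-GC members lie below 0 and most high-GC members above, with 15 filled points, and on the right 6 are filled.

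The corrected calls changed with single libraries. PDIA4, PDIA6 and ERO1A lost theirs without any 1 of 8 libraries, LPS_ABS 1 being the exception, and without LPS 3 PDIA3 alone of the 6 was kept. Without LPS_ABS 1 the count was 9 higher and 2 lower, and the number of all genes called in that fit is not given here.

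LPS_ABS 3 was often the highest library of its group in the folding genes. It held this place in 13 of 23 folding genes (56.5%, against 35.4% of all genes tested), and in 15 of 23 (65.2%, against 37.4%) after the GC correction. The mean over the folding genes of log2(CPM + 1), relative to the controls, was -0.34, -0.35 and -0.31 in LPS 1, 2 and 3 and -0.22, -0.27 and -0.05 in LPS_ABS 1, 2 and 3. Without it, LPS_ABS exceeded LPS in 6 folding genes and was below it in 2, against 8 and 3 with all libraries, and after the GC correction 2 were higher and 0 lower, against 5 and 0. Leaving out other libraries moved these counts as well. The number of all genes called in fits with a library left out is not given here, so the counts do not set the folding genes apart. As counted, 5 folding genes were higher without LPS 1, LPS 2 or LPS 3. After the GC correction, 2 were higher without any 1 control, LPS 1, LPS 2 or LPS_ABS 2, 1 without LPS 3, and 8 (with 1 lower) without LPS_ABS 1. In bulk RNA, fewer cells of a type and less RNA per cell cannot be told apart, for this library as for the others.

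**Figure D4:**
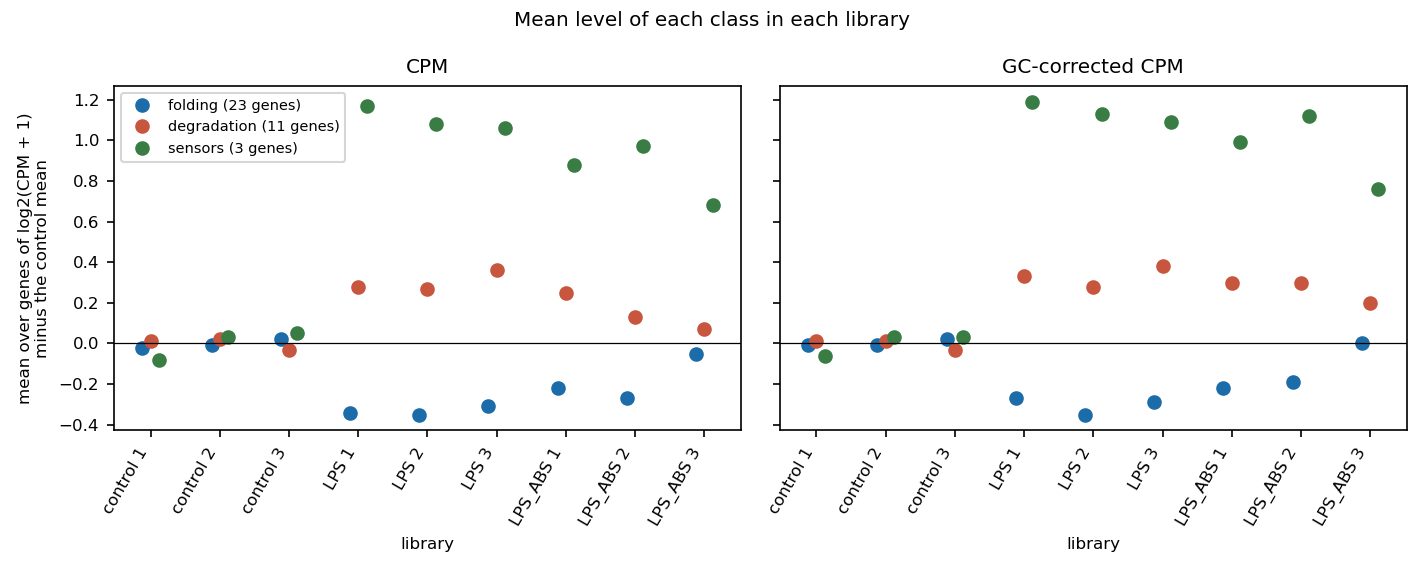
Mean over the genes of each class of log2(CPM + 1) minus the mean of the control libraries (y axis) for each of the 9 libraries (x axis), as counted (left) and after the GC correction (right). The folding genes lie below 0 in all LPS libraries and nearest to 0 among treated libraries in LPS_ABS 3 (-0.05 as counted), and the 3 sensor genes lie between 0.68 and 1.17 in the treated libraries as counted.

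Against the PBS controls, LPS_ABS cells had 7 members higher and 9 lower before the GC correction (edgeR adjusted p under 0.05; 14.8% and 19% of all genes) and 6 higher and 4 lower after it (7.94% and 5.07%). The 5 members called both before and after were XBP1 (log2 fold change 1.61 before and 1.54 after), HERPUD1 (1.44 and 1.5), ERN1 (1.14 and 1.02), HSP90B1 (-0.93 and -0.47) and MANF (-0.49 and -0.77). ATF6 (0.43), EDEM1 (0.44) and DERL1 (0.43) were called higher, and SDF2L1 (-0.60) and TXNDC5 (-0.42) lower, after the correction alone. By class, after the correction 0 of 23 folding genes were higher (1 at an unadjusted edgeR p under 0.05) and 4 lower, 3 of 11 degradation genes were higher and 0 lower (1 unadjusted), and the 3 sensor genes were higher. In GC-corrected CPM, HSP90B1 was at 467.5, 430.3 and 463 in controls and 351, 296 and 338 with LPS_ABS, and XBP1 at 155, 140.3 and 147 in controls and 494, 505 and 288 with LPS_ABS. Neither gene overlapped between these groups. HSP90B1 lost its corrected call without control 1 or LPS_ABS 2, and MANF, SDF2L1, TXNDC5, EDEM1 and DERL1 lost theirs without LPS_ABS 2. TXNDC5 kept its corrected call only in the fit without LPS_ABS 3, SDF2L1, DERL1 and ATF6 lost theirs without control 1 or control 2, and EDEM1 without any 1 control library or LPS_ABS 1.

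In the PERK and ATF4 arm, the GC-corrected values of LPS_ABS against control had 14 of 14 genes higher, with a median log2 fold change of 1.99 (13 higher and a median of 2.07 before the correction). Of all genes tested, 7.94% were called higher in that comparison after the correction and 14.8% before it. EIF2AK3, the gene of PERK, is outside that list. It was called lower in LPS_ABS than in controls before the correction and was not called after it. Between LPS_ABS and LPS 0 of the 14 genes in the list rose (0 also at an unadjusted edgeR p under 0.05) and 1 fell after the correction, with a median of -0.29, whereas before it 1 rose and 1 fell, with a median of -0.17. The gene that fell after the correction was ATF4 (-0.61, edgeR adjusted p = 0.0304). Before it ATF4 was at -0.25 and was not called (edgeR adjusted p = 0.185), and the gene that fell was CEBPG. Of the other folding factors outside the members, LPS_ABS exceeded LPS in 7 of 32 and was below it in 9 before the correction, with a median of -0.12, and in 1 and 3 after it, with a median of -0.13. Of the other degradation factors 6 were higher and 6 lower before the correction, with a median of -0.03, and 2 and 2 after it, with a median of -0.04. Of all genes tested, 16.8% were called higher and 18.8% lower in LPS_ABS against LPS before the correction. After it these shares were 5.03% and 4.23%.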

How the data were processed

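RNA was sequenced from 9 PMA-treated THP-1 samples. The authors deposited raw read counts per gene and FPKM values for 16222 genes. The deposited FPKM values equal the count over 1 length per gene and the library total, so they rank genes per length. The tools listed, without role or order, per the submitters' processing notes are HISAT2, fastp, DESeq2, HTSeq and R 3.2.0. The build, annotation and strand setting of the counting are not given in the sources used here, and 2 library kits (TruSeq stranded mRNA and VAHTS Universal V5) are named per the labels for each sample without saying which was used. In GENCODE v29, exons of 13 of the 39 members overlap those of another counted gene, among them HSP90B1, CRELD2, PDIA3, PDIA6 and DERL1, and such reads cannot be separated by strand with certainty.

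Tests on the counts used edgeR 4.0.16 (R 4.3.3): filterByExpr (12970 genes, 99.985% of counts), TMM, 1 mean per group over all 9 libraries, the quasi-likelihood F test with 6 residual degrees of freedom, and Benjamini-Hochberg adjustment over all genes tested. Genes were called at an adjusted p under 0.05. Total counts were 38506162 to 41679412, and the common biological coefficient of variation was 18.4%. CPM are scaled by TMM. The GC correction takes a lowess trend (span 0.3) of each library's log counts on the GC content of the longest coding GENCODE transcript (found for 99.34% of genes) as an offset. The scripts were tested on simulated data.

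The members and the lists were chosen with earlier results of these data known. Values in every library are given for members called with LPS, for members called in either LPS_ABS comparison both before and after the GC correction, and for the sensors. Up to 2 genes per direction are named from each other list. Alternatives were DESeq2 1.42.0, limma-voom (limma 3.58.1), other scalings, no filter, 2 groups alone, the replicate number as a block and each library left out. GC correction with a library left out was added after the data were seen.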

Additional observations from a re-analysis of the deposited data

How the results depend on the processing

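For LPS against control, the count of members lower was 15 when only these 2 groups were fitted, where 13.3% of all genes were called lower against 7.19%. For LPS_ABS against LPS, members higher numbered 5 with total counts, 5 with the GC correction and 5 with only the 2 groups. Members lower numbered 1 with the GC correction. With that correction the share of all genes called fell too, from 16.8% to 5.03% higher and from 18.8% to 4.23% lower. For total counts and for only the 2 groups, the share of all genes called in LPS_ABS against LPS is not given here. The counts in those fits therefore do not set the members apart. For LPS_ABS against control, members lower numbered 4 with the GC correction, where 5.07% of all genes were called lower against 19% before it.

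Whether replicate numbers pair the samples could not be told. Correlations of deviations from the group means were -0.076 to 0.343 between same-numbered libraries of different groups. Between differently numbered libraries they were -0.365 to 0.29. The highest values, 0.343 and 0.334, were between same-numbered control and LPS_ABS libraries. With the replicate block, P4HB alone of the 15 members lost its call in LPS_ABS against LPS and no member in the other comparisons. With the replicate block and the GC correction, members lower numbered 2 in LPS_ABS against LPS and 4 in LPS_ABS against control.

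Log2 fold changes turned sign under the GC correction in 1 member for LPS against control (DERL2), 11 for LPS_ABS against LPS and 14 for LPS_ABS against control. Those called before or after the correction are given here without and then with the block. In LPS_ABS against LPS these were P4HB (-0.10 and -0.10) and ERO1A (0.57 and 0.56). In LPS_ABS against control these were CANX (0.14 and 0.12), ERO1A (0.11 and 0.10), ERO1B (7.5e-04 and 0.001015), SEL1L (0.15 and 0.15) and ATF6 (0.43 and 0.43).

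Leaving out 1 library at a time gave 5 to 11 members higher in LPS_ABS against LPS as counted, and 3 to 9 lower in LPS_ABS against control. After the GC correction it gave 1 to 9 higher and 0 to 2 lower in LPS_ABS against LPS, and 3 to 8 higher and 0 to 6 lower in LPS_ABS against control. For LPS against control it gave 6 to 7 higher and 6 to 13 lower as counted. The cause of these changes was not tested, and a fit with a library left out has fewer residual degrees of freedom. With no filter on low counts PDIA6 and ERO1A lost their LPS call. FKBP2, with 1 read in all, could not be tested, and why it had so few reads was not tested.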
